A study of Mus musculus with 62 samples.

Results

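The collagen genes and the lysyl oxidases of mouse tibialis anterior, a fast shin muscle, were followed through 8 weeks after injection of melanoma cells. Members were the genes of the expression table whose symbol is a collagen alpha chain (Col, a number, a, a number) or one of Lox and Loxl1 to Loxl4. The rule found 49 of 47643 genes, 44 collagens and 5 lysyl oxidases, and used no measured value. Mice were female and labelled 2 months old. The CAC group had received melanoma cells that cause cachexia, the wasting of muscle and fat, the NCAC group melanoma cells labelled non-cachectic, and controls a mock injection, and the muscle was taken at 2, 4, 6 or 8 weeks. Each of the 12 groups held 5 muscles, except CAC at 8 weeks with 7. The labels call the libraries biological replicates and give no batch. They do not name the melanoma lines, so each kind of tumour may stand for a single line. The sample labels give the strain as C57BL6/J, whereas the design text gives NCI Ath/nude mice, which lack T cells, and the files do not settle which is right. Levels are TPM values, which give each gene's transcripts as a share of the library's total after correction for transcript length.

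Collagens are triple helices of alpha chains, and their class follows from how the helices assemble. Fibril-forming chains make the cables of tendon and of the muscle's connective sheaths. Type IV chains make the sheet under every muscle fibre and capillary. Type VI chains make beaded filaments that link this sheet to the fibrils, and loss of type VI is a known cause of inherited muscle disease. Fibril-associated collagens sit on fibrils, multiplexins (types XV and XVIII) lie at basement membranes, and type VII makes anchoring fibrils. Lysyl oxidases are secreted copper enzymes that start the cross-links between collagen and elastin molecules. In muscle most of these genes are expressed mainly by fibroblasts and their progenitors, by tendon cells and by cells of the vessels.

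The libraries read as skeletal muscle. The summed level of Ckm, Acta1, Mylpf, Myh4 and Myh1, which mark fibres, was at least 40544 TPM in every library. Melanocyte markers (Pmel, Mlana, Tyr, Dct and Tyrp1) summed to at most 1.01 TPM, and Tyr was at 0 in every mock muscle at 2, 6 and 8 weeks. Spearman correlations between pairs of libraries ranged from 0.854 to 0.989. A few libraries stood apart. Most distant along the first principal component (the outlying libraries hereafter) were CAC replicate 1 at 6 weeks and CAC replicates 1 and 6 at 8 weeks. Albumin, a liver gene, was 1196 TPM in mock replicate 1 at 2 weeks and 142 to 194 TPM in mock replicate 2 at 2 weeks and mock replicate 3 at 4 weeks, against a median of 0.14 TPM. Haemoglobin Hba-a1 was highest, 3252 TPM, in CAC replicate 3 at 8 weeks. TPM keeps no read depth, so no counting interval is given and precision rests on the spread between muscles.

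Promoter windows of members were searched for 3 short sequences. RefSeq windows (GRCm38.p6, 250 bases before to 50 after the start) were found for 36 of the 49 members. Those of Col4a2, Col1a2 and Col3a1 are printed because each belongs to a pair of chains whose levels are compared further on. They lie at chr8:11312555-11312854, chr6:4505368-4505667 and chr1:45311288-45311587, all on the plus strand. Capitals mark a CCAAT box (CCAAT), a GC box (GGGCGG) or a TATA box (TATAAA), each searched on both strands, so that ATTGG and CCGCCC are matches on the other strand.
Col4a2: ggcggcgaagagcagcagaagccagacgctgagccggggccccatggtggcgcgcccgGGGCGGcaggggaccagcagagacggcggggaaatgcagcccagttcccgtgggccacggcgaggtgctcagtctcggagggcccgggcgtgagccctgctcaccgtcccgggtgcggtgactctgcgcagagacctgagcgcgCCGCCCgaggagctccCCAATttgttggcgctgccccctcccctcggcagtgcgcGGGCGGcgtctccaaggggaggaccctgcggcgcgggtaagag
Col1a2: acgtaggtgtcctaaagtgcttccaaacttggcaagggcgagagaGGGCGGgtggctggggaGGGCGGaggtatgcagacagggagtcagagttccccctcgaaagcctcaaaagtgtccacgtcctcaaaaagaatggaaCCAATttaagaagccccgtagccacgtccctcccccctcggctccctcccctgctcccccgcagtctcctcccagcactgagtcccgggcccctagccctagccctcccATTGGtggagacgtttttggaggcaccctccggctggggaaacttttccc
Col3a1: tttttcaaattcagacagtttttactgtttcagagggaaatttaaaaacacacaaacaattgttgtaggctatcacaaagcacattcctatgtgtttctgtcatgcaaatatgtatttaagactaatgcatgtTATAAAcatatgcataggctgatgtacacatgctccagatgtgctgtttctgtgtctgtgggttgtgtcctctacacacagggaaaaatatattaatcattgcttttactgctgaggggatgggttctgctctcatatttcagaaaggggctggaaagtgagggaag
The Col4a2 window also holds the start of Col4a1. In the GENCODE M21 annotation of GRCm38 these genes face away from each other and overlap by 22 bases, from 11312805, the start of Col4a2, to 11312826, the start of Col4a1. The window carries 3 GC boxes and 1 CCAAT box. The Col1a2 window carries 2 GC boxes and 2 CCAAT boxes, and the Col3a1 window carries a TATA box and no match to the others. Of all 32851 RefSeq promoter windows 37.4% hold a CCAAT box, 35.7% a GC box and 13.6% a TATA box. Among 20 windows of the members tested below, 7, 13 and 2 hold them. A match describes letters, not a bound factor.

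Fibril-forming and type IV chains made up most of the collagen message. Of the summed level of the 49 members, fibril-forming chains took 37.0% (a mean of 96.4 TPM over the 62 libraries) and type IV chains 31.9% (83.0 TPM). Beaded filament chains, which are those of type VI, took 13.6% (35.5 TPM). Lysyl oxidases took 5.12%, multiplexins 4.82% and fibril-associated chains 4.20%. The highest members were Col4a1 (a mean of 44.5 TPM), Col4a2 (37.2 TPM), Col3a1 (28.1 TPM), Col1a1 (26.0 TPM) and Col1a2 (21.2 TPM). A mean of at least 1 TPM was required for a test and kept 27 members, 23 collagens and 4 lysyl oxidases. The other 22, Loxl4 among them, had means from 0.00298 to 0.757 TPM and no single value above 1.90 TPM (Col11a1).

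Whether the type IV and type VI totals separated CAC from mock muscle depended on the scale, whereas the lysyl oxidase total did at 6 weeks on both scales and the fibril-forming total at no week on either. The fibril-forming total in CAC muscle was 160.3 ± 98.6 TPM at 2 weeks (mean ± SD, n = 5) and 61.2 ± 14.6 TPM at 8 weeks (n = 7), and in mock muscle 123 ± 42.1 TPM and 86.7 ± 40.0 TPM (n = 5 each). The 5 CAC muscles at 2 weeks ranged from 64.2 to 299.9 TPM, and the ranges of CAC and mock muscle overlapped at every week. The lysyl oxidase total at 6 weeks was 17.9 to 24.7 TPM in CAC muscle and 7.68 to 9.72 TPM in mock muscle, with no overlap, and rescaled 14.6 to 20.7 TPM and 8.07 to 10.04 TPM. The type IV total at 6 weeks was 73.6 to 111 TPM in CAC muscle and 46.0 to 63.0 TPM in mock muscle, also without overlap as deposited. Rescaled, the type IV totals at 6 weeks overlapped (63.2 to 89.9 TPM and 49.8 to 69.8 TPM). At 8 weeks the deposited type IV totals overlapped (64.5 to 101 TPM and 40.1 to 109 TPM). The type VI total at 8 weeks was 23.7 ± 8.00 TPM in CAC and 39.0 ± 11.3 TPM in mock muscle, with overlap. Rescaled, the type VI ranges at 8 weeks were apart (8.60 to 28.6 TPM and 35.4 to 52.9 TPM). These totals were not tested.

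**Figure D1:**
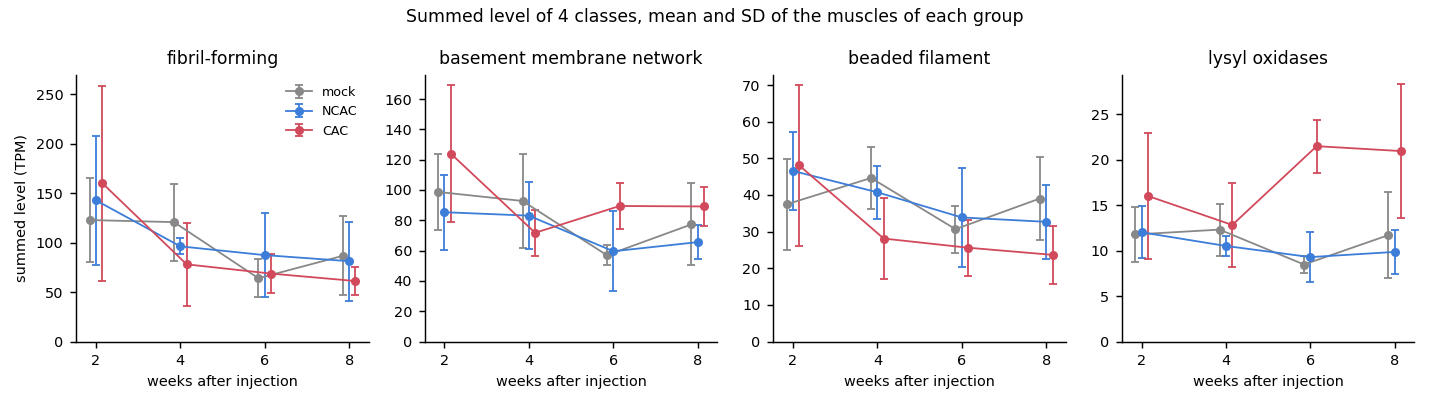
Summed level in TPM as deposited (vertical axis, from 0) of 4 classes against weeks after injection; points are group means and bars the SD over 5 muscles (7 for CAC at 8 weeks). The lysyl oxidase total of CAC muscle at 6 weeks (21.5 ± 2.90 TPM) lies above that of mock muscle (8.47 ± 0.884 TPM), while the fibril-forming totals of CAC and mock muscle overlap at every week.

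Which of these genes differ in muscle of mice with cachectic tumours was asked at each week, with limma on log2(TPM + 1) over all 11107 genes above the filter and an adjusted p (Benjamini-Hochberg) under 0.05. A log2 change on this scale understates the change of genes with low levels. At 2 weeks 0 members passed, and 0 had an unadjusted p under 0.05, as 954 of 11107 genes had. Of all genes 0.054% passed. At 4 weeks limma again called 0 members, where 0.936% of all genes passed. An unadjusted p under 0.05 was found for 10 of 27 members and for 1575 of 11107 genes. The median log2 change of the members at 4 weeks was -0.41, and that of all genes 0.11. At 6 weeks 9 of 27 members were higher in CAC than in mock muscle and 1 was lower. Of all genes 60.7% were higher and 3.26% lower. The count of lower members was 0 without mock replicate 2 and 2 without CAC replicate 2. At 8 weeks 7 members were higher and 5 lower, against 69.4% and 5.09% of all genes. The count of lower members was 3 without CAC replicate 6. The median log2 change of the members at 8 weeks was -0.01, and that of all genes 0.46.

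The whole table was shifted at the later weeks, with the median gene 0.38 (log2) higher in CAC than in mock muscle at 6 weeks and 0.46 higher at 8 weeks. Each library was therefore also divided by its median-of-ratios size factor (0.614 to 1.47), which sets the typical gene near 0, so that a rescaled change is read relative to it. Rescaled, Loxl2 alone was called at 4 weeks, as lower (-0.70, limma adjusted p = 0.0490). Of all genes 1.49% passed in either direction, 98 of 11107 higher and 68 lower. The rescaled median of the members at 4 weeks was -0.51, and that of all genes 0.001. An unadjusted p under 0.05 was reached by 16 of 27 members and 1671 of 11107 genes. At 6 weeks 4 members were higher and 5 lower, against 16.9% and 18.1% of all genes. At 8 weeks 1 member was higher and 11 were lower, against 24.9% and 24.2% of all genes. The rescaled median of the members at 8 weeks was -0.37, and that of all genes 0.02. At 8 weeks Lox was called higher, and Col5a1, Col6a1, Col6a2, Col11a2 and Col22a1 lower, on both scales. In bulk tissue, fewer cells of a type and less RNA per cell cannot be told apart.

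**Figure D2:**
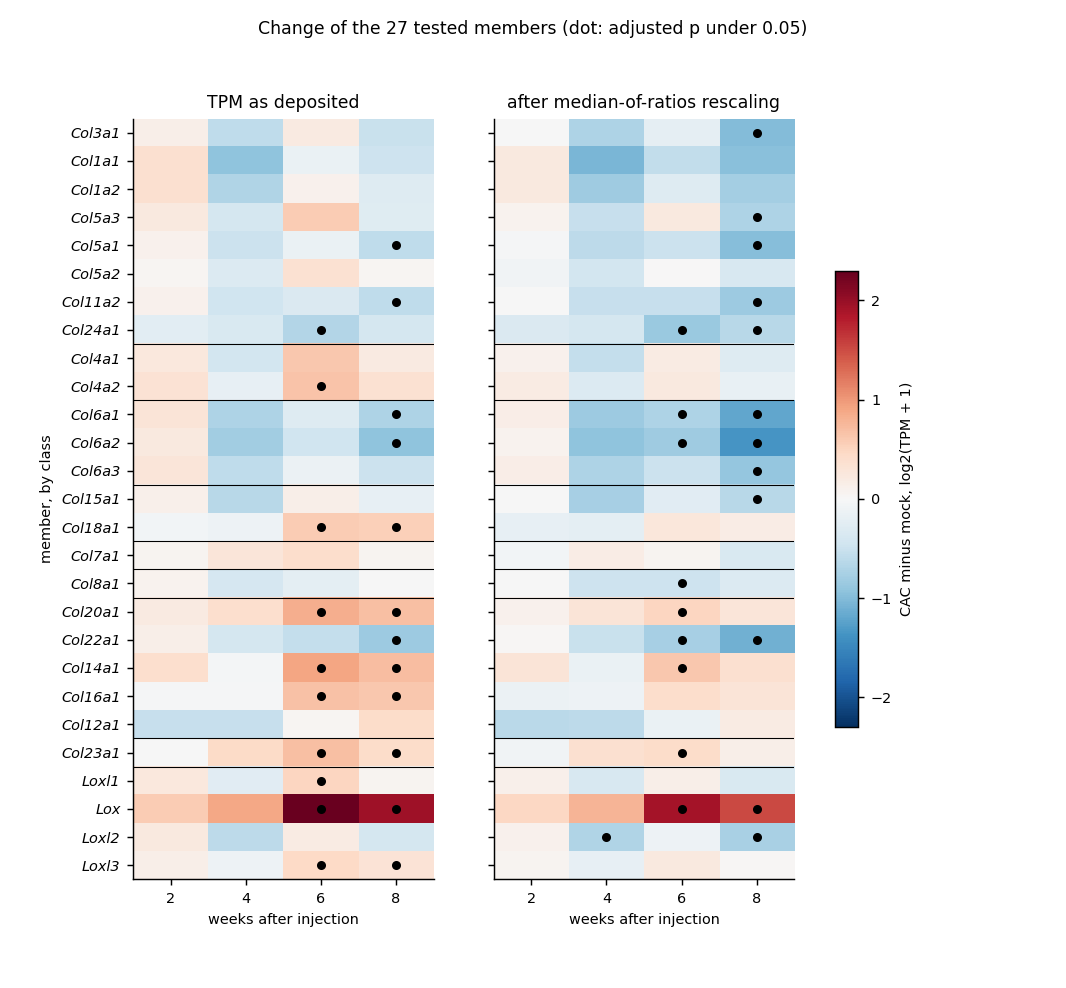
Difference between CAC and mock muscle on the log2(TPM + 1) scale (colour) for the 27 tested members, ordered by class, at 2, 4, 6 and 8 weeks, as deposited (left) and after median-of-ratios rescaling (right); a dot marks an adjusted p under 0.05. Lox has dots at 6 and 8 weeks on both sides, and the changes of the 3 tested type VI chains are below 0 at 4, 6 and 8 weeks on both.

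Among the lysyl oxidases Lox, the founding member of the family (chr18:52516067-52529867, minus strand, GRCm38), had the largest change. At 6 weeks its level was 15.4, 13.5, 9.62, 8.02 and 9.62 TPM in the CAC muscles and 2.58, 1.34, 1.09, 1.22 and 1.30 TPM in the mock muscles. Every CAC muscle lay above every mock muscle, and Lox rose 7.44-fold in mean TPM (log2 change 2.28 ± 0.30 SE, limma adjusted p = 5.01e-08). At 8 weeks the 7 CAC muscles ranged from 2.19 to 22.8 TPM with a median of 9.33 TPM, and the mock muscles read 1.58, 4.02, 1.20, 2.18 and 1.04 TPM. CAC replicate 3, the library highest in haemoglobin, had the lowest CAC value and lay within the mock range. Lox rose 5.93-fold (log2 change 1.94 ± 0.28 SE, limma adjusted p = 7.37e-08). With each library left out in turn the log2 change was 2.16 to 2.41 at 6 weeks and 1.75 to 2.24 at 8 weeks, and no call was lost. The rescaled changes were 1.92 and 1.52. At 4 weeks the CAC muscles read 2.56, 10.9, 2.62, 6.90 and 3.77 TPM and the mock muscles 2.35, 2.26, 2.33, 1.17 and 2.41 TPM. These did not overlap either, but the difference did not pass (limma adjusted p = 0.171).

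The other lysyl oxidases moved by smaller amounts. Loxl3, which has a known role at muscle attachments (chr6:83034173-83052562, plus strand), read 1.42, 1.49, 1.99, 1.39 and 1.35 TPM in CAC muscle at 6 weeks and 0.776, 0.901, 0.768, 0.840 and 0.884 TPM in mock muscle, without overlap. As deposited Loxl3 rose at 6 weeks (0.46 ± 0.11 SE, limma adjusted p = 0.00072) and at 8 weeks (0.32 ± 0.11 SE, adjusted p = 0.00705). Rescaled, it passed at neither (0.22 and 0.03). Loxl1, which is needed for elastic fibres, was 5.42 ± 0.821 TPM in CAC and 3.54 ± 0.397 TPM in mock muscle at 6 weeks. It rose (0.50 ± 0.22 SE, adjusted p = 0.0406), but this was lost without CAC replicate 2, 3 or 5 or mock replicate 2, 3 or 4 (adjusted p 0.0518 to 0.0976) and after rescaling (0.14). Loxl2, which cross-links type IV collagen, was 2.32 ± 0.476 TPM in CAC and 3.48 ± 1.27 TPM in mock muscle at 8 weeks. This difference did not pass as deposited (-0.40, adjusted p = 0.0638), but did without CAC replicate 7 or mock replicate 1 or 5 (adjusted p 0.0346 to 0.0493). Rescaled, Loxl2 fell (-0.75 ± 0.18 SE, adjusted p = 0.000565).

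**Figure D3:**
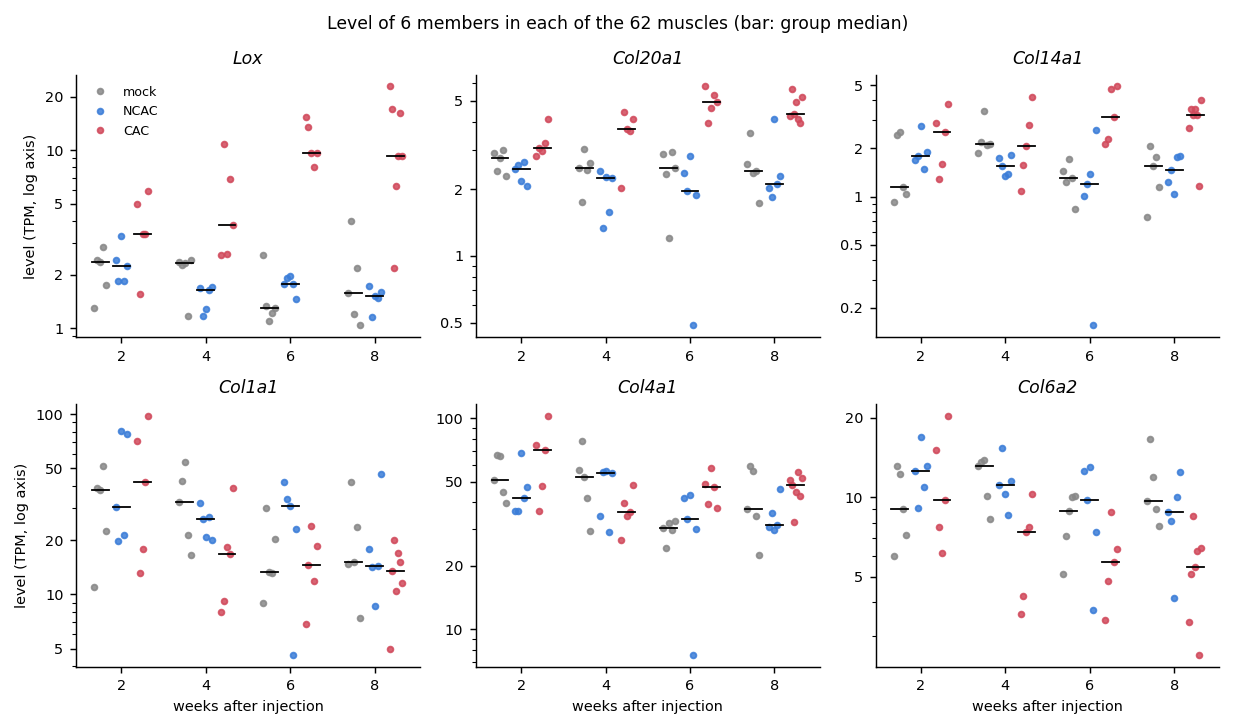
Level in TPM (log axis) of Lox, Col20a1, Col14a1, Col1a1, Col4a1 and Col6a2 in each of the 62 muscles against weeks after injection, with a bar at each group's median. At 6 weeks the CAC values of Lox (8.02 to 15.4 TPM) lie above the mock values (1.09 to 2.58 TPM), whereas those of Col1a1 overlap with them.

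The main fibril-forming chains did not pass as deposited at any week. Col1a1, the major chain of type I collagen (chr11:94936224-94953042, plus strand), read 6.85, 14.6, 24.1, 11.8 and 18.5 TPM in CAC muscle at 6 weeks and 8.94, 30.0, 13.3, 13.2 and 20.4 TPM in mock muscle. The groups overlapped (log2 difference -0.16 ± 0.50 SE, limma adjusted p = 0.79). At 8 weeks Col1a1 ranged from 5.00 to 20.1 TPM with a median of 13.4 TPM in CAC muscle, and mock muscle read 14.8, 42.2, 15.1, 23.5 and 7.37 TPM. The difference was -0.48 ± 0.47 SE (adjusted p = 0.347) and, rescaled, -0.95 ± 0.44 SE (adjusted p = 0.0669). Mock muscles of a single week differed widely in Col1a1, from 11 to 51.6 TPM at 2 weeks. Col1a2, the other type I chain, was 13.7 ± 3.1 TPM in CAC and 18.3 ± 9.88 TPM in mock muscle at 8 weeks and passed on neither scale. Col3a1, the chain of type III collagen, was 17.1 ± 6.12 TPM and 24.9 ± 10.2 TPM. It did not pass as deposited (-0.51, adjusted p = 0.191) and fell after rescaling (-1.0 ± 0.34 SE, adjusted p = 0.0133).

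Col5a1 and Col11a2, minor fibrillar chains, were lower at 8 weeks. Col5a1, a chain of type V collagen, which sets fibril diameter (chr2:27886425-28039514, plus strand), ranged from 1.95 to 4.68 TPM with a median of 3.90 TPM in CAC muscle at 8 weeks, and mock muscle read 5.29, 8.53, 6.39, 5.09 and 3.54 TPM. The ranges overlapped. Col5a1 fell as deposited (-0.59 ± 0.23 SE, limma adjusted p = 0.0181), but not without CAC replicate 6 (0.0522), without mock replicate 2 (0.0817) or without the 3 outlying libraries (0.139). Rescaled, it fell by 0.97 (adjusted p = 8.07e-05). Col11a2, best known from cartilage, was 1.16 ± 0.673 TPM in CAC and 2.22 ± 0.874 TPM in mock muscle at 8 weeks. It fell (-0.58 ± 0.24 SE, adjusted p = 0.0269), but not without CAC replicate 1 or 6 or mock replicate 1 or 4 (adjusted p 0.051 to 0.0976) or without the 3 outlying libraries (0.124).

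Col24a1, known from developing bone, read 0.552, 0.444, 0.865, 0.642 and 0.873 TPM in CAC muscle at 6 weeks and 1.47, 3.39, 0.960, 1.61 and 1.38 TPM in mock muscle. Every CAC value lay below every mock value. Col24a1 fell (-0.67 ± 0.26 SE, limma adjusted p = 0.0216), but not without mock replicate 2, which held its highest value (0.106). At 8 weeks it did not pass as deposited (-0.41, adjusted p = 0.115) and did without CAC replicate 3 (0.0414) or after rescaling (0.0175). Of the other type V chains Col5a2 (4.19 ± 0.540 TPM in CAC and 4.15 ± 1.34 TPM in mock muscle at 8 weeks) passed on neither scale, and Col5a3 (6.76 ± 2.08 TPM and 8.69 ± 3.98 TPM) fell after rescaling only (-0.72, adjusted p = 0.0107).

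Of the 3 tested chains of type VI collagen 2 were lower at 8 weeks on both scales. Col6a2 (chr10:76595762-76623630, minus strand) ranged from 2.54 to 8.52 TPM with a median of 5.43 TPM in CAC muscle at 8 weeks, and mock muscle read 9.65, 16.5, 12, 9.01 and 7.78 TPM. CAC replicate 3 was the one CAC muscle within the mock range. Col6a2 fell to 0.490 times the mock mean (-0.93 ± 0.26 SE, limma adjusted p = 0.00143) and, rescaled, by 1.36 (adjusted p = 9.04e-06). Col6a1, its partner chain (chr10:76708792-76726168, minus strand), ranged from 6.97 to 17.5 TPM with a median of 13.1 TPM, and mock muscle read 19.5, 30.5, 21.3, 18.3 and 14.1 TPM. The ranges overlapped, and Col6a1 fell (-0.72 ± 0.25 SE, adjusted p = 0.00946; rescaled -1.19). Both calls as deposited held with any single library left out, but Col6a1 did not pass without the 3 outlying libraries (-0.48, adjusted p = 0.0987). Col6a3, the largest chain, was 4.65 ± 1.96 TPM in CAC and 6.63 ± 1.86 TPM in mock muscle (-0.49, adjusted p = 0.0894). It passed without CAC replicate 3 (0.0377) and after rescaling (-0.89). At 6 weeks Col6a1 and Col6a2 fell after rescaling only (-0.71 and -0.82).

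Of the 2 tested type IV chains 1 was higher at 6 weeks as deposited, and neither passed at 8 weeks. Col4a1 (chr8:11198423-11312826, minus strand) read 48.9, 39.3, 58.2, 47.3 and 37.8 TPM in CAC muscle at 6 weeks and 30.2, 24.2, 32.0, 29.5 and 32.5 TPM in mock muscle. The groups did not overlap, but the difference of 0.61 ± 0.28 SE missed the threshold (limma adjusted p = 0.0529). Col4a2, its partner (chr8:11312805-11449287, plus strand), was 42.0 ± 7.15 TPM in CAC and 26.2 ± 3.63 TPM in mock muscle. It rose (0.65 ± 0.27 SE, adjusted p = 0.0316), but not without CAC replicate 1 or 3 or mock replicate 2 or 4 (adjusted p 0.0506 to 0.0786). Rescaled, neither passed (0.19 and 0.23). Of the multiplexins Col18a1, the precursor of endostatin (chr10:77052178-77166548, minus strand), was 3.81 ± 0.819 TPM in CAC and 2.3 ± 0.598 TPM in mock muscle at 8 weeks. As deposited it rose at 6 weeks (0.59, adjusted p = 0.00346) and 8 weeks (0.54, adjusted p = 0.00264), and rescaled it passed at neither (0.27 and 0.16). Col15a1, the other multiplexin (8.49 ± 1.11 TPM and 10.1 ± 3.08 TPM), fell after rescaling only (-0.64, adjusted p = 0.0228).

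Fibril-associated collagens held members of both directions. Col20a1 (chr2:180986535-181018363, plus strand) read 5.80, 3.98, 4.62, 5.31 and 4.96 TPM in CAC muscle at 6 weeks and 2.87, 2.34, 1.20, 2.94 and 2.50 TPM in mock muscle, without overlap. The ranges were apart at 8 weeks too (3.98 to 5.63 TPM and 1.73 to 3.60 TPM). Col20a1 rose at 6 weeks (0.84 ± 0.17 SE, limma adjusted p = 5.79e-05) and 8 weeks (0.69 ± 0.16 SE, adjusted p = 0.000127). Rescaled, it passed at 6 weeks (0.50) and not at 8 weeks (0.29). Col14a1, a fibril surface collagen (chr15:55307750-55520803, plus strand), read 2.14, 2.29, 4.74, 3.17 and 4.90 TPM in CAC muscle at 6 weeks and 1.44, 1.23, 1.71, 1.30 and 0.832 TPM in mock muscle, again without overlap. It rose at 6 weeks (0.91 ± 0.23 SE, adjusted p = 0.000734; rescaled 0.61) and as deposited at 8 weeks (0.71 ± 0.21 SE, adjusted p = 0.00255; rescaled 0.37). Col16a1 was 2.56 ± 0.551 TPM in CAC and 1.34 ± 0.577 TPM in mock muscle at 8 weeks. As deposited it rose at 6 weeks (0.68) and 8 weeks (0.63, adjusted p = 0.00635), and rescaled it passed at neither (0.40 and 0.29).

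Col22a1, which is laid down where muscle meets tendon (chr15:71795795-72034227, minus strand), ranged from 0.339 to 2.02 TPM with a median of 1.71 TPM in CAC muscle at 8 weeks, and mock muscle read 3.94, 3.89, 1.87, 4.85 and 1.41 TPM. The ranges overlapped at the low end of the mock muscles. Col22a1 fell (-0.83 ± 0.30 SE, limma adjusted p = 0.0114), as deposited with any single library left out as well, and after rescaling (-1.11). At 6 weeks it did not pass as deposited (-0.54, adjusted p = 0.136), but did without CAC replicate 2 (0.0482) or after rescaling (-0.76). Col12a1, a collagen of load-bearing tissue, was called at no week, and its highest values came from single muscles, such as 4.39 TPM in CAC replicate 6 at 8 weeks against 0.399 to 1.41 TPM in the others. Col23a1, a transmembrane collagen (chr11:51289920-51583918, plus strand), read 2.76, 1.23, 2.70, 2.59 and 1.81 TPM in CAC muscle at 6 weeks and 0.951, 1.06, 1.03, 0.992 and 0.771 TPM in mock muscle, without overlap. It rose at 6 weeks (0.69 ± 0.13 SE, adjusted p = 1.68e-05; rescaled 0.42) and as deposited at 8 weeks (0.42 ± 0.12 SE, adjusted p = 0.00133; rescaled 0.13). Col7a1, of anchoring fibrils, was called at no week on either scale. Col8a1, a network collagen of vessels, fell after rescaling only, at 6 weeks (-0.47, adjusted p = 0.0333).

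Muscle of mice injected with melanoma cells labelled non-cachectic was compared as well. Between CAC and NCAC muscle, cachexia and the kind of melanoma cells cannot be told apart. Over all weeks 0% of genes passed between NCAC and mock muscle in limma, and 0 members. At an unadjusted p under 0.05 there were 232 genes, of which 1 member (Col18a1, -0.18 ± 0.09 SE). The comparisons of CAC with NCAC muscle use the same CAC muscles as those with mock muscle. At 2 weeks limma called 0 members and 0.063% of all genes, with 2 of 27 members (Col5a3 and Col7a1) and 778 of 11107 genes at an unadjusted p under 0.05. At 4 weeks 3 members were higher and 0 lower (4.68% and 0.585% of all genes), and 8 of 27 members and 2900 of 11107 genes had an unadjusted p under 0.05. Lox read 2.56, 10.9, 2.62, 6.90 and 3.77 TPM in CAC and 1.68, 1.17, 1.28, 1.63 and 1.69 TPM in NCAC muscle (1.19 ± 0.30 SE, limma adjusted p = 0.0141). Its call was lost without CAC replicate 2 (0.129) or 4 (0.0696). Col20a1 (0.62) was lost without CAC replicate 2, 4 or 5 or NCAC replicate 2 or 4 (adjusted p 0.0527 to 0.116), and Col23a1 (0.41) without those or NCAC replicate 3 or 5 (0.0711 to 0.135). The count of 3 thus became 0 without CAC replicate 2 or 4 and 1 without CAC replicate 5 or NCAC replicate 2 or 4. Rescaled, Lox and Col20a1 were higher and Col15a1 and Col6a2 lower, against 2.8% and 3.66% of all genes.

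At 6 weeks 10 members were higher in CAC than in NCAC muscle and 3 lower (64.2% and 3.52% of all genes), and after rescaling 5 and 5 (20.8% and 21.7%). Lox was 11.2 ± 3.07 TPM in CAC and 1.77 ± 0.194 TPM in NCAC muscle (2.11 ± 0.30 SE, limma adjusted p = 1.9e-07). Col20a1 (1.09), Col14a1 (1.01), Col23a1 (0.90) and Loxl3 (0.55) rose too, on both scales, and Col18a1 (0.71) as deposited only. The other 4 increases rested on NCAC replicate 4. Without it Col4a1 (adjusted p = 0.287), Col4a2 (0.189), Loxl1 (0.227) and Col16a1 (0.0885) were lost, and 6 members were higher and 5 lower. Col4a1 was also lost without CAC replicate 3, and Loxl1 without CAC replicate 2 or 3. Of the lower members Col22a1 (1.41 ± 1.09 TPM and 3.74 ± 2.00 TPM, -0.96, adjusted p = 0.00799) was called with any single library left out. Col24a1 and Col11a2 were lost without CAC replicate 1, 2 or 4 or NCAC replicate 1, 2 or 3 (adjusted p 0.0512 to 0.134 and 0.0628 to 0.129), which left 1 lower member, and Col11a2 also without CAC replicate 3.

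At 8 weeks 7 members were higher in CAC than in NCAC muscle and 2 lower (67% and 5.04% of all genes), and after rescaling 2 and 10 (25.3% and 24.3%). Lox was 7.95-fold the NCAC mean, with NCAC muscles at 1.74, 1.15, 1.52, 1.47 and 1.60 TPM, all below the CAC range (2.13 ± 0.28 SE, limma adjusted p = 9.33e-09). Col14a1, Col18a1, Col20a1, Col23a1 and Loxl3 rose by 0.41 to 0.73 and were called with any single library left out. Col16a1 (0.48, adjusted p = 0.035) was lost without CAC replicate 4, 5 or 6 or NCAC replicate 2, 3 or 4 (0.0514 to 0.124). Rescaled, Lox and Col20a1 were the 2 higher members. The lower members were Col6a2 (5.39 ± 2.00 TPM and 8.72 ± 3.03 TPM, -0.60, adjusted p = 0.0346) and Col5a1 (-0.53, adjusted p = 0.0329). Both were lost without CAC replicate 1 or 6 or NCAC replicate 4 or 5, and Col6a2 also without NCAC replicate 1 or 2 (adjusted p 0.0578 to 0.106 and 0.0512 to 0.123). Without NCAC replicate 3 there were 5 lower members.

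Mock muscle was compared with itself over time. Between 8 and 2 weeks 0 of 27 members passed in limma, with 2 at an unadjusted p under 0.05 (Col12a1 and Col18a1; 347 of 11107 genes), and 0.27% of all genes did. Whether the difference between CAC and mock muscle itself changed from 2 to 8 weeks was tested as an interaction. It grew for Lox (1.37 ± 0.41 SE, limma adjusted p = 0.00987), Col18a1 (0.61) and Col23a1 (0.43) and went down for Col6a1 (-1.02) and Col6a2 (-1.15 ± 0.38 SE, adjusted p = 0.0172), against 36.4% and 2.57% of all genes. Lox and Col6a2 were called with any single library left out, but not without the 3 outlying libraries (0.0512 and 0.0694). Col6a1 was lost in 6 of 22 cases (CAC replicates 1 and 5 and mock replicate 1 at 2 weeks, CAC replicates 1 and 6 and mock replicate 2 at 8 weeks; adjusted p 0.0511 to 0.0704). Col18a1 was lost in 9 (CAC replicates 2, 3 and 4 and mock replicates 1 and 2 at 2 weeks, CAC replicates 5 and 7 and mock replicates 1 and 5 at 8 weeks; 0.0549 to 0.142). Col23a1 was lost in 13 (CAC replicates 1, 3, 4 and 5 and mock replicates 1 and 4 at 2 weeks, CAC replicates 4, 5, 6 and 7 and mock replicates 1, 4 and 5 at 8 weeks; 0.0514 to 0.09). The count of 3 growing members ranged from 1 to 5, highest without mock replicate 2 at 8 weeks, and that of 2 from 1 to 4, highest without CAC replicate 3 at 2 weeks. Rescaled, Lox was higher (1.05), and Col5a1, Col6a1, Col6a2, Col6a3, Col22a1 and Loxl2 lower, against 9.1% and 10.7% of all genes.

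Ratios between chains that assemble into the same molecule varied less over the muscles than the levels did. So did some ratios between chains of different collagens. Not all ratios were the same in every group. Col4a1 over Col4a2, the head-to-head pair printed above, was 1.01 to 1.42 in all 62 libraries, while the levels themselves varied 13.6-fold and 11-fold. At 4 weeks this ratio was 1.06 to 1.16 in CAC, 1.27 to 1.38 in mock and 1.20 to 1.36 in NCAC muscle. The CAC range thus lay below both others at 4 weeks. At 2, 6 and 8 weeks it overlapped with that of mock muscle. The library kit keeps strand, but whether counting used it was not stated in the labels, so reads from the overlap of 22 bases may be shared. Col6a1 over Col6a2 was 1.77 to 2.82, with levels varying 6.01-fold and 8.02-fold. They lie on the same strand, 85161 bases apart. At 8 weeks this ratio was 2.04 to 2.74 in CAC and 1.78 to 2.03 in mock muscle, without overlap (means 2.35 ± 0.267 and 1.90 ± 0.123, SD). In NCAC muscle at 8 weeks the same ratio was 1.83 to 2.34, which overlapped with the CAC range. Col1a1 over Col1a2, on different chromosomes, was 0.610 to 1.60. Its mean in CAC muscle was 1.30 ± 0.204 at 2 weeks and 0.937 ± 0.197 at 8 weeks, and in mock muscle 1.30 ± 0.192 and 1.07 ± 0.188. These group values of the type IV, type VI and type I ratios were picked after they were seen and were not tested. Col3a1 and Col5a2, neighbours 24614 bases apart on opposite strands whose chains belong to different collagens, had a ratio of 2.32 to 9.25. That ratio varied 3.98-fold, and the levels 18.2-fold and 10.8-fold. Col3a1 over Col1a1, also of different collagens, varied 4.51-fold, and Col4a1 over Col1a1 16.8-fold. Within one molecule the ratio varied 1.40-fold for type IV, 1.59-fold for type VI and 2.62-fold for type I.

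The balance of type IV to type I collagen was tested as a ratio within each library, which no scaling of a library changes. The log2 ratio of Col4a1 to Col1a1 at 6 weeks was 1.71 ± 0.72 in CAC and 0.91 ± 0.78 in mock muscle (SD, n = 5 each; difference 0.80, two-sided exact permutation p = 0.119). At 8 weeks it was 1.92 ± 0.81 (n = 7) and 1.18 ± 0.63 (n = 5; difference 0.74, exact permutation p = 0.101). Of 8 such tests, 4 weeks each for this ratio and for Col3a1 over Col1a1, 0 passed (lowest adjusted p 0.279, exact permutation tests with Benjamini-Hochberg adjustment), and the ranges overlapped in all 8. The smallest p these exact tests allow is 0.00794 with 5 against 5 muscles and 0.00253 with 7 against 5.

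**Figure D4:**
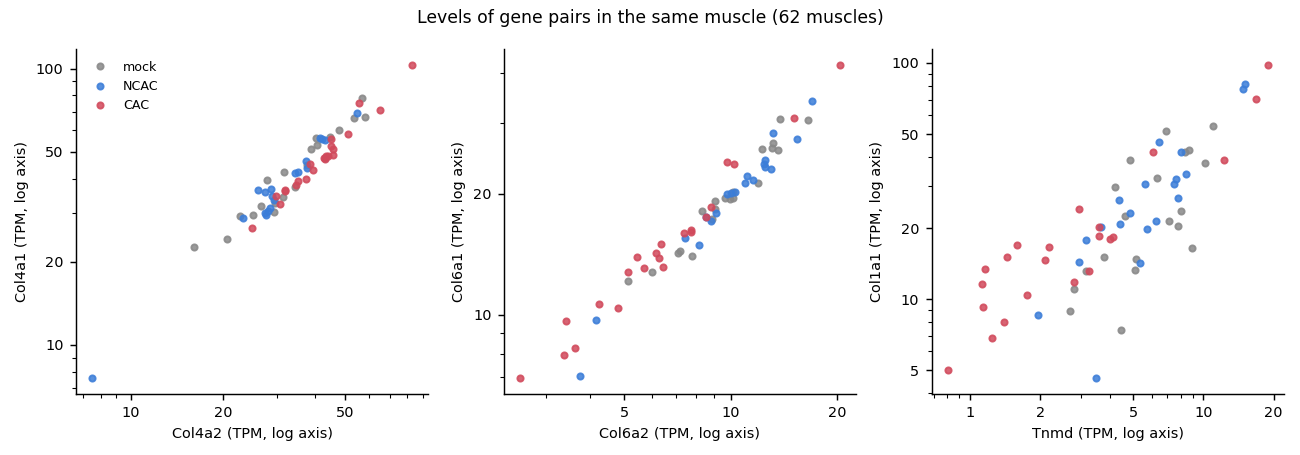
Levels in TPM (log axes) of Col4a1 against Col4a2, Col6a1 against Col6a2 and Col1a1 against the tendon marker Tnmd, with 1 point for each of the 62 muscles, coloured by treatment. The type IV points stay in a narrow band (ratio 1.01 to 1.42), and the Tnmd points scatter more widely.

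Some markers of tendon cells were lower at 8 weeks. Tnmd, tenomodulin, was 0.805 to 3.59 TPM in CAC and 3.75 to 8.32 TPM in mock muscle at 8 weeks, without overlap, and fell (-1.40 ± 0.34 SE, limma adjusted p = 0.000301). Of 6 listed tendon genes 5 were tested. At 8 weeks 0 were higher and 3 lower (0 higher and 4 lower after rescaling), and at 6 weeks 1 was higher and 1 lower. Of all genes 69.4% and 5.09% were higher and lower at 8 weeks, 24.9% and 24.2% after rescaling, and 60.7% and 3.26% at 6 weeks. Kera, keratocan, and Thbs4, a thrombospondin of tendon, were the other lower genes at 8 weeks as deposited. Fmod (-0.88, adjusted p = 0.11) and the transcription factor gene Scx (0.37, adjusted p = 0.275) did not pass. The summed level of the list at 8 weeks was 27.6 to 71.8 TPM in CAC and 47.9 to 104 TPM in mock muscle. The muscle lowest in Col1a1 was also lowest in Tnmd in 9 of the 12 groups, and the muscle highest in Col1a1 was highest in Tnmd in 7. In the same order the counts were 9 and 7 for Fmod, 6 and 2 for Scx and 5 and 5 for Thbs4. They were 2 and 5 for Pdgfra, listed here for fibroblasts and their progenitors, and 4 and 4 for Pecam1, an endothelial gene. Of the members looked at, Col1a2 had 11 and 10, Col3a1 10 and 7, Col4a1 7 and 6 and Lox 4 and 4. These counts were not tested, and the same counts over all genes were not taken. The part of tendon in the levels of the members was not tested.

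Markers of other cells that make collagen were counted at 8 weeks beside the share of all genes, 69.4% and 5.09% higher and lower as deposited and 24.9% and 24.2% rescaled. No list was tested against these shares. Of 7 genes of fibro-adipogenic progenitors and fibroblasts 4 were higher and 0 lower (1 higher and 1 lower after rescaling), with summed levels of 367 to 833 TPM in CAC and 273 to 451 TPM in mock muscle. Pdgfra, a receptor that defines these progenitors, was 5.35 ± 1.27 TPM in CAC and 2.77 ± 1.01 TPM in mock muscle (0.76, limma adjusted p = 0.00015), and Dpt, dermatopontin, was 25.2 ± 6.90 TPM in CAC and 25.8 ± 6.45 TPM in mock muscle (adjusted p = 0.812). Of 6 endothelial genes 5 were higher and 1 lower, the latter Kdr, a growth factor receptor (2 higher and 1 lower after rescaling), with sums of 192 to 241 TPM and 102 to 157 TPM. Of 6 pericyte and smooth muscle genes 5 were higher and 0 lower (3 higher and 1 lower after rescaling), with sums of 248 to 364 TPM and 147 to 225 TPM. Of 5 tested macrophage genes 5 were higher and 0 lower (2 higher and 0 lower after rescaling), with sums of 77.4 to 221 TPM and 38.1 to 80.02 TPM. Of 4 tested Schwann cell genes 3 were higher and 0 lower (1 higher and 0 lower after rescaling), with sums of 41.5 to 88.3 TPM and 21.1 to 109 TPM. Of 3 tested fat cell genes 2 were higher and 0 lower (1 higher and 0 lower after rescaling), with sums of 9.29 to 39.1 TPM and 2.23 to 11.9 TPM. Of the cartilage and bone genes only Comp was tested and it was higher as deposited, with sums of 3.65 to 15.8 TPM and 1.23 to 3.94 TPM and Bglap at 0 in every CAC and mock muscle at 8 weeks. The part of these cells in the levels of the members was not tested.

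Genes around collagen synthesis were counted in lists of their own at 8 weeks, against the 69.4% and 5.09% of all genes and the median of 0.46 given above. After rescaling the shares of all genes were 24.9% and 24.2% and the median 0.02. Of 17 tested genes for folding and modification 9 were higher and 0 lower (median 0.37; 3 higher and 2 lower after rescaling). P4hb, a subunit of prolyl hydroxylase, was 190.5 ± 60.8 TPM in CAC and 89.0 ± 18.5 TPM in mock muscle (1.05, adjusted p = 2.06e-06) in limma. Plod3, a lysyl hydroxylase, was 10.9 ± 0.974 against 5.78 ± 1.47 TPM (0.83, adjusted p = 3.19e-08), and Ppib, a prolyl isomerase, 66.7 ± 7.22 against 38.5 ± 4.03 TPM (0.77, adjusted p = 4.74e-08). All 3 were also called higher after rescaling. Of 15 tested genes for procollagen processing and fibril assembly 8 were higher and 0 lower (median 0.43; 3 higher and 3 lower after rescaling). Dcn, decorin, a proteoglycan that binds fibrils, was 329 ± 124 TPM in CAC and 163 ± 31.3 TPM in mock muscle (0.94, adjusted p = 0.000124), and Eln, elastin, a substrate of Lox, 13.9 ± 4.75 against 6.22 ± 2.99 TPM (1.07, adjusted p = 1.18e-05).

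Of 14 tested genes for collagen breakdown and its inhibitors 10 were higher and 1 lower (median 0.98; 6 higher and 2 lower after rescaling). Mmp3, stromelysin, was 7.07 ± 3.54 TPM in CAC and 0.257 ± 0.0761 TPM in mock muscle (2.49, adjusted p = 2.36e-12) in limma. Mmp14, a membrane-bound collagenase, was 10.3 ± 2.85 against 3.34 ± 1.39 TPM (1.40, adjusted p = 2.88e-07). Mmp19, another matrix metalloproteinase (0.91), and the inhibitor gene Timp1 (1.05) rose too, and these 4 genes were called higher after rescaling as well. The 1 lower gene, named after its value was seen, was Mmp15 (-0.54). Of 10 other basement membrane genes 5 were higher and 0 lower (median 0.30; 1 higher and 1 lower after rescaling), with Lama5, a laminin chain, at 17.6 ± 2.87 against 8.65 ± 2.00 TPM. Of 6 tested collagen receptors 5 were higher and 0 lower (median 0.55; 1 higher and 1 lower after rescaling). Ddr2, a receptor kinase for fibrillar collagen, was 7.21 ± 0.718 against 4.20 ± 0.394 TPM (0.66, adjusted p = 4.18e-06) and did not pass after rescaling. Of 17 genes of the transforming growth factor beta pathway, which drives collagen expression in fibroblasts, 13 were higher and 1 lower (median 0.58; 8 higher and 2 lower after rescaling). The receptor genes Tgfbr2, at 32.4 ± 10.3 against 10.3 ± 1.71 TPM (1.52, adjusted p = 1.92e-10), and Tgfbr3, at 14.2 ± 3.76 against 3.68 ± 0.693 TPM (1.67, adjusted p = 5.58e-12), rose on both scales. The 1 lower gene, the ligand gene Tgfb2, was named after its value was seen and fell on both scales (-0.89, adjusted p = 0.00133).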

How the data were processed

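RNA of 62 tibialis anterior muscles was sequenced from poly(A) libraries made with a stranded kit, per the labels' protocols. The authors deposited a table of TPM values per gene. It was made on genome build mm10, per the submitters' processing notes, with the aligner, counter and annotation not given in the sources used here. TPM values sum to a fixed total in each library, so read depth is lost and a rise in some abundant genes lowers the share of others.

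Genes averaging 1 TPM or more (11107 of 47643) were tested on log2(TPM + 1) with limma 3.58.1 in R 4.3.3 (lmFit, then eBayes with a trend), with 12 group means, 62 libraries and 50 residual degrees of freedom. P-values were adjusted by Benjamini-Hochberg within each of 11 contrasts. The same fit was run after division by median-of-ratios size factors over 10999 genes. Ratios were tested with two-sided exact permutation tests (scipy 1.17.1). Groups came from the sample labels, and no 2 libraries held identical values. Coordinates are from GENCODE M21 (GRCm38, the assembly of mm10).

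The members and gene lists were chosen with earlier results of these data known. Every tested member could be named. Of other genes, up to 4 per list with the smallest adjusted p at 8 weeks and the first 3 of each marker list could be, with exceptions said in the text. Alternatives were another pseudocount, no filter, rescaling, a replicate block, a fit of only the groups compared, and leaving out each library. All but rescaling itself were run on TPM as deposited, so rescaled calls were not checked with libraries left out. Marker and pathway lists were counted and given no set test.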

Additional observations from a re-analysis of the deposited data

Results flagged for a closer look

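Single muscles far from the rest of their group were looked for with Dixon's gap test in the 324 sets of 1 tested member in 1 group. It marked 29 sets of 17 members. Chance marks about 1 set in 20 if values follow a normal distribution. The test was run on TPM without a log, and whether these values follow one was not checked. In each case the value of the muscle is given, with the range of the other muscles of its group in brackets. Col11a2 was 1.25 TPM in CAC replicate 5 at 6 weeks (against 0.822 to 0.936 TPM). Col1a1 reached 46.3 TPM in NCAC replicate 5 at 8 weeks (against 8.57 to 17.8 TPM). Col1a2 stood at 34.1 TPM in NCAC replicate 5 at 8 weeks (against 8.31 to 15.3 TPM). Col24a1 read 3.39 TPM in mock replicate 2 at 6 weeks (against 0.960 to 1.61 TPM) and 1.99 TPM in CAC replicate 3 at 8 weeks (against 0.408 to 0.967 TPM). Col3a1 was 42.5 TPM in mock replicate 2 at 8 weeks (against 17.1 to 24.1 TPM). Col5a1 reached 9.49 TPM in NCAC replicate 3 at 2 weeks (against 5.15 to 6.17 TPM). Col5a2 stood at 6.84 TPM in NCAC replicate 3 at 2 weeks (against 4.66 to 5.03 TPM). Col12a1 read 3.46 TPM in mock replicate 2 at 4 weeks (against 0.574 to 1.18 TPM), 1.40 TPM in CAC replicate 5 at 4 weeks (against 0.220 to 0.439 TPM), 2.72 TPM in mock replicate 2 at 6 weeks (against 0.298 to 0.661 TPM), 3.46 TPM in NCAC replicate 5 at 8 weeks (against 0.417 to 1.13 TPM) and 4.39 TPM in CAC replicate 6 at 8 weeks (against 0.399 to 1.41 TPM). Col14a1 was 3.42 TPM in mock replicate 3 at 4 weeks (against 1.87 to 2.18 TPM). Col18a1 reached 6.99 TPM in mock replicate 1 at 2 weeks (against 2.15 to 3.39 TPM), 4.62 TPM in CAC replicate 5 at 2 weeks (against 2.68 to 3.03 TPM), 1.53 TPM in mock replicate 1 at 6 weeks (below 2.13 to 2.32 TPM) and 0.647 TPM in NCAC replicate 4 at 6 weeks (below 2.14 to 2.37 TPM). Col20a1 stood at 4.12 TPM in NCAC replicate 3 at 8 weeks (against 1.84 to 2.28 TPM). Col4a2 read 37.4 TPM in NCAC replicate 5 at 8 weeks (against 27.4 to 28.5 TPM). Col7a1 was 9.40 TPM in NCAC replicate 3 at 8 weeks (against 2.87 to 3.82 TPM). Col8a1 reached 2.25 TPM in CAC replicate 3 at 6 weeks (against 1.11 to 1.42 TPM) and 2.85 TPM in mock replicate 2 at 8 weeks (against 1.25 to 1.57 TPM). Lox stood at 1.17 TPM in mock replicate 4 at 4 weeks (below 2.26 to 2.41 TPM) and 2.58 TPM in mock replicate 1 at 6 weeks (against 1.09 to 1.34 TPM). Loxl2 read 4.57 TPM in CAC replicate 5 at 4 weeks (against 1.51 to 2.12 TPM) and 0.908 TPM in NCAC replicate 4 at 6 weeks (below 3.02 to 3.79 TPM). Loxl3 was 0.158 TPM in NCAC replicate 4 at 6 weeks (below 0.865 to 0.940 TPM) and 1.99 TPM in CAC replicate 3 at 6 weeks (against 1.35 to 1.49 TPM).

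The difference between CAC and mock muscle was higher at 8 than at 2 weeks for 3 members and lower for 2, by the interaction term in limma. Of all genes 36.4% were higher and 2.57% lower. The term was 1.37 on the log2 scale for Lox, 0.61 for Col18a1, 0.43 for Col23a1, -1.02 for Col6a1 and -1.15 for Col6a2. Of these 5 members, Lox, Col6a1 and Col6a2 were also called after rescaling, where 9.1% of all genes were higher and 10.7% lower. With single libraries left out, Col23a1 was lost in 13 of 22 cases, Col18a1 in 9 and Col6a1 in 6.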

How the results depend on the processing

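Rescaling by median-of-ratios size factors moved the counts most. In CAC against mock muscle the higher members went from 9 to 4 at 6 weeks and from 7 to 1 at 8 weeks, and the lower members from 0 to 1 at 4 weeks, from 1 to 5 at 6 weeks and from 5 to 11 at 8 weeks. In CAC against NCAC muscle the higher members went from 10 to 5 at 6 weeks and from 7 to 2 at 8 weeks, and the lower from 0 to 2 at 4 weeks, from 3 to 5 at 6 weeks and from 2 to 10 at 8 weeks. For the interaction the counts went from 3 to 1 higher and from 2 to 6 lower. With no filter on low values all 49 members were tested instead of 27. Of them 12 were higher than in mock muscle at 8 weeks, 0 were lower than in NCAC muscle at 8 weeks and the interaction had 1 higher member. With a pseudocount of 0.1 the interaction had 1 higher member. With only the groups compared in the fit, CAC against NCAC had 1 higher member at 4 weeks and 1 lower at 8 weeks, and the interaction 1 higher and 1 lower. Of 60 pairs of libraries with the same replicate number 15 had deviations correlated above 0.1 (range -0.332 to 0.332, median -0.028). Differently numbered pairs were not compared, so whether the numbers pair the samples was not settled. With the replicate number as a block, CAC against mock had 3 lower members at 8 weeks, CAC against NCAC 0 lower at 8 weeks, and the interaction 1 higher and 1 lower.

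Some alternatives were chosen after seeing the data. Without the 3 libraries most distant along the first principal component, CAC against mock had 1 higher member at 4 weeks and 2 lower at 8 weeks, CAC against NCAC 1 lower at 6 weeks and 0 lower at 8 weeks, and the interaction 0 lower. Without the libraries over 100 TPM of albumin the interaction had 1 lower member. Leaving out each library in turn gave 7 to 10 higher and 0 to 2 lower members in CAC against mock at 6 weeks, and 7 higher and 3 to 7 lower at 8 weeks. In CAC against NCAC it gave 0 to 3 higher at 4 weeks, 6 to 12 higher and 1 to 5 lower at 6 weeks, and 6 to 7 higher and 0 to 5 lower at 8 weeks. The interaction had 1 to 5 higher and 1 to 4 lower, and the remaining counts stayed at 0. No member named in a comparison changed direction under any of these alternatives while called. The 8 ratio tests gave the same outcome with a pseudocount of 1. Limits are the spread among 5 to 7 muscles a group, the unknown read depth, and levels near 1 TPM for several members.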
